A study of Homo sapiens with 16 samples.

Results

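The genes described here are 44 genes of homologous recombination and of the Fanconi anemia pathway, taken by symbol from a fixed list and not by any measured value, out of 33937 genes in the count table. All 44 were found in the table, and all 44 passed the filter on low counts in each comparison. The RNA came from the human colorectal carcinoma line HCT116, whose cells stably carried either a scrambled short hairpin RNA (SCR) or a hairpin against *NAA40* (NAA40-KD), both switched on by doxycycline (dox). *NAA40* encodes the acetyltransferase that modifies the N terminus of histones H4 and H2A. SCR (+dox) and NAA40-KD (+dox) cells had received dox at 1 μg/ml for 96 h, whereas SCR (-dox) and NAA40-KD (-dox) cells were cultured for 96 h without it, and each of the 4 groups had 4 RNA-seq libraries. The hairpin line is a selected stable line, so that differences between the SCR and NAA40-KD lines other than the hairpin cannot be told apart from those of the hairpin. Total counts per library ran from 11065606 to 13855486.

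Homologous recombination repairs broken DNA by copying the intact sister molecule and therefore works mainly in S and G2 phase. The kinases ATM and ATR signal the break or the stalled fork, nucleases trim the ends, BRCA2 and its partners load the recombinase that searches for the matching sequence, and helicases and nucleases resolve the joined molecules. The Fanconi proteins detect and unhook crosslinks between the strands, through a core complex that attaches ubiquitin to FANCD2 and FANCI, and hand the resulting break to recombination. Many of these genes are transcribed most in late G1 and S phase, and inherited loss of several of them predisposes to cancer.

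*NAA40* itself was checked first. It read 34.7, 25.9, 29.1 and 28.7 CPM (the count relative to the library's total, scaled by TMM) in SCR (-dox), and 12.5, 11.5, 9.32 and 13.4 CPM in NAA40-KD (-dox). In SCR (+dox) it read 26.2, 28.3, 26.3 and 28.2 CPM, and in NAA40-KD (+dox) 31.6, 29.3, 28.7 and 31.8 CPM. The targeted transcript thus stood at 39.4% of the SCR (-dox) mean in NAA40-KD (-dox), and at 111% of the SCR (+dox) mean in NAA40-KD (+dox). Each difference had an exact two-sided permutation p of 0.0286, the smallest that 4 against 4 libraries can give, whereas edgeR's adjusted p was 0.00521 in the first and 0.281 in the second. This goes against the label, since dox should switch the hairpin on. All groups are therefore called by their labels, and every direction given below rests on these labels.

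The library labelled NAA40-KD (-dox) replicate 4 stood apart from the other 15. Its score on the first principal component was 104, against -21.9 to 8.61 for the others, and the SD of its log2 deviations from its group's medians was 0.861, against 0.175 to 0.289. In this library 30 of the 44 repair genes had their lowest value of the group and 9 their highest. Its departure from replicates 1 to 3 moved with the GC content of the transcripts. GC content was taken from the longest annotated transcript of each gene. Among the 29 repair genes below 45% GC, 28 were lower in replicate 4 (median log2 difference -1.22). Among the 15 genes at 45% or more, 6 were lower (median 0.27). Across the 44 genes, which share this library and are no independent replicates, Pearson's r with GC content was 0.917 and Spearman's rho 0.913. Over 14366 genes with a GC content, r was 0.886. For the repair genes called in NAA40-KD (-dox) against SCR (-dox), the log2 fold change is therefore given with and without this library. The part of GC content in them was not tested beyond the values given here.

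**Figure D1:**
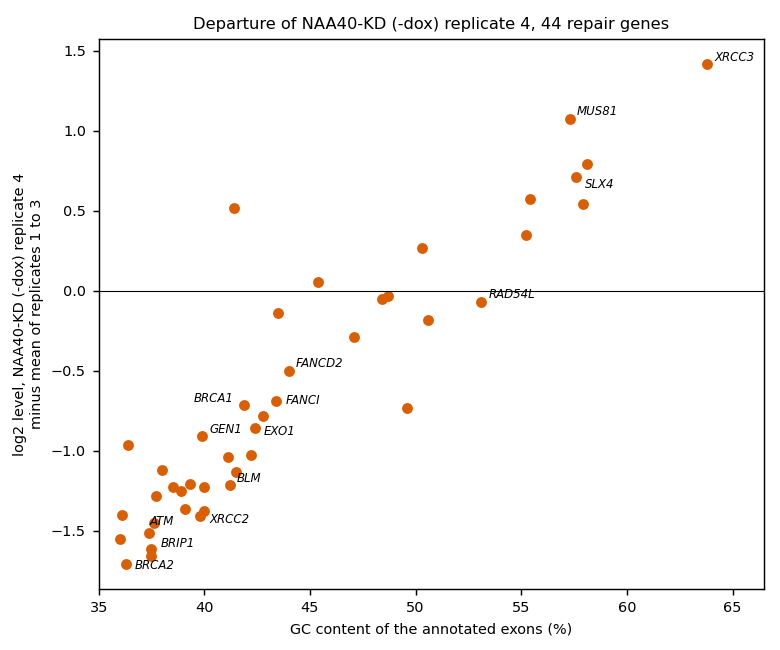
Each point is 1 of the 44 repair genes, placed by the GC content of its longest annotated transcript (percent, horizontal axis, labelled there as annotated exons). The vertical axis is its log2 level in NAA40-KD (-dox) replicate 4 minus the mean of replicates 1 to 3. Of the 29 genes below 45% GC, 28 lie below the zero line, and the GC-rich *XRCC3*, *MUS81* and *SLX4* lie above it.

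In NAA40-KD (-dox) against SCR (-dox), 10 of the 44 repair genes fell and 0 rose at an adjusted p under 0.05 (edgeR quasi-likelihood test, Benjamini-Hochberg over all genes tested), where 6.42% of all 13903 genes tested were called, 2.88% higher and 3.54% lower. The 10 were *EXO1*, *BRCA1*, *BRCA2*, *GEN1*, *XRCC2*, *BRIP1*, *BLM*, *RAD54L*, *FANCI* and *FANCD2*, and 8 of them fell by more than 1 on the log2 scale, as did 1.85% of all genes. In all 10 genes each NAA40-KD (-dox) library lay below each of the 12 libraries of the other groups. The 10 were called for being low in this group, so this is no separate evidence. The share of all genes with this pattern was not counted. The median log2 fold change of the 44 genes was -0.47, against 0.04 over all genes tested, and 37 of the 44 lay below 0, against 46.2% of all genes. In 22 of the 44 genes every NAA40-KD (-dox) library was below every SCR (-dox) library, as in 12.6% of all genes, and in 2 every library was above, as in 9.13%. In RNA from a whole culture, fewer cells that express a gene and less of its RNA per cell cannot be told apart.

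Without NAA40-KD (-dox) replicate 4 the count grew to 23 genes lower and 3 higher, where 36.5% of all genes were called, 19.4% lower and 17.1% higher. The 10 genes above were among the 23, again 8 had fallen by more than 1 on the log2 scale (2.52% of all genes), and the median of the 44 was -0.35. With all libraries of this group kept, the count was sensitive to each SCR library. Leaving out SCR (-dox) replicate 1, 2, 3 or 4 gave 4, 5, 3 and 4 called genes, where 1.72%, 2.06%, 1.72% and 1.64% of all genes were called. Leaving out NAA40-KD (-dox) replicate 1, 2 or 3 gave 8, 4 and 7, where 2.59%, 2.18% and 3.18% of all genes were called. *EXO1*, *BRCA1* and *RAD54L* were called in all 8 of these fits with a library left out, *GEN1* in 6, *FANCD2* and *FANCI* in 4, *BLM* in 3 and *XRCC2* in 2. *BRCA2* and *BRIP1* were called in 1 of the 8, the fit without NAA40-KD (-dox) replicate 4.

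**Figure D2:**
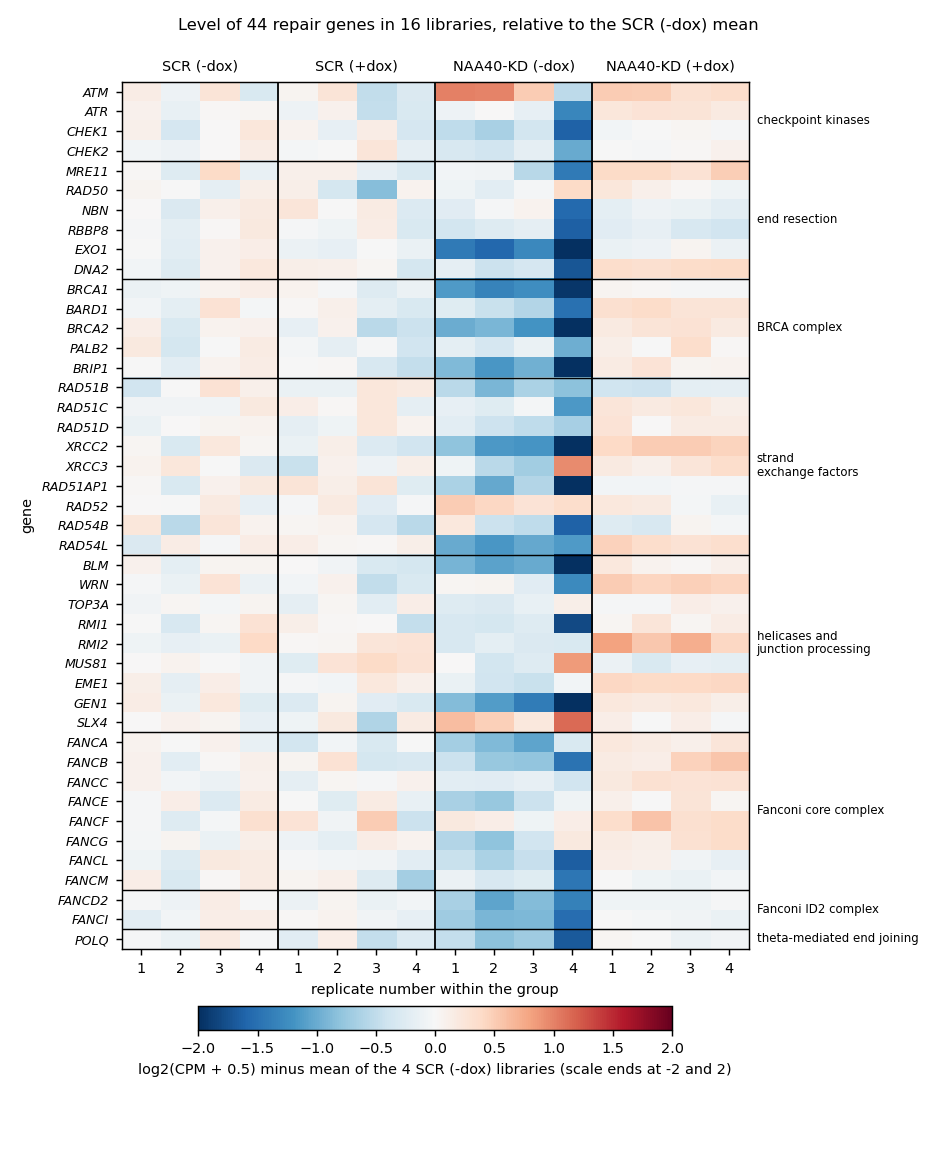
Rows are the 44 repair genes, grouped by role, and columns the 16 libraries by group and replicate number; the colour is log2(CPM + 0.5) minus the mean of the 4 SCR (-dox) libraries. The NAA40-KD (-dox) columns are blue for most rows, most deeply in replicate 4, and *EXO1*, *BRCA1*, *BRCA2*, *BRIP1*, *XRCC2*, *RAD54L*, *BLM* and *GEN1* are blue in all 4.

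**Figure D3:**
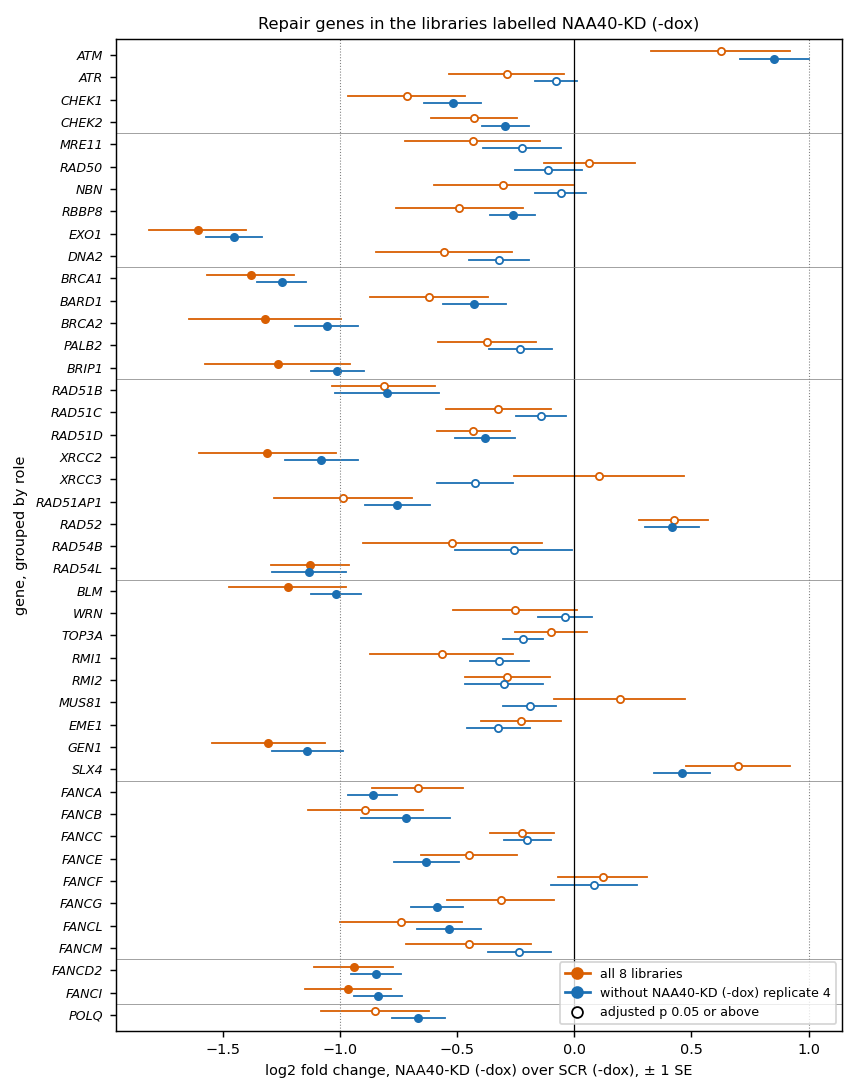
Points are log2 fold changes of NAA40-KD (-dox) over SCR (-dox) with 1 SE to each side, for all 8 libraries (orange) and without NAA40-KD (-dox) replicate 4 (blue); filled points have an adjusted p under 0.05 and dotted lines mark -1 and 1. Filled orange points number 10, all left of 0, and filled blue points 26, of which *ATM*, *RAD52* and *SLX4* lie right of 0.

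The nuclease genes of end resection were led by *EXO1*, the exonuclease that digests long stretches of the broken end. *EXO1* read 32.5, 28.3, 34.6 and 35.9 CPM in SCR (-dox) and 12, 10.7, 13.1 and 6.53 CPM in NAA40-KD (-dox). The groups did not overlap, and the means were 32.9 ± 3.32 and 10.6 ± 2.86 CPM (SD, n = 4). The log2 fold change was -1.61 ± 0.21 (SE), with an edgeR adjusted p of 0.00425, and -1.45 ± 0.12 without replicate 4. Of the other 5 genes of this role, *DNA2*, *MRE11*, *RBBP8*, *NBN* and *RAD50*, none was called with all libraries, at log2 fold changes from -0.56 to 0.06, and *RBBP8*, the CtIP gene that starts the trimming, fell without replicate 4 (-0.26 ± 0.10).

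The genes of the BRCA complex, which mediates between trimmed ends and strand exchange, had a median log2 fold change of -1.27, and 3 of 5 fell. *BRCA1*, the ubiquitin ligase subunit that favours resection, read 47.3, 48.2, 53.8 and 55.9 CPM in SCR (-dox) and 23.1, 19.9, 21.4 and 13 CPM in NAA40-KD (-dox). All 4 values in the latter group lay below the lowest control value, and the log2 fold change was -1.38 ± 0.19 (SE), and -1.25 ± 0.10 without replicate 4. *BRCA2*, the loader of the recombinase, read 27.8, 20.4, 26.7 and 27.0 CPM against 12.5, 13.2, 10.8 and 3.66 CPM. *BRIP1*, a helicase that binds BRCA1, read 42.4, 37.1, 45 and 47.5 CPM against 23.0, 18.8, 21.7 and 6.85 CPM. In both genes replicate 4 was the lowest library by a wide margin, and the log2 fold change went from -1.32 ± 0.33 to -1.06 ± 0.13 for *BRCA2* and from -1.27 ± 0.31 to -1.01 ± 0.11 for *BRIP1* when it was left out. *BARD1*, the partner that BRCA1 needs for its activity, read 22.5, 20.5, 28.7 and 22.8 CPM against 19.8, 17.1, 15.5 and 7.96 CPM. Its groups did not overlap, yet it was not called with replicate 4 (-0.62 ± 0.25) and was called lower without it (-0.43 ± 0.13, edgeR adjusted p = 0.0213). *PALB2*, which joins BRCA1 to BRCA2, was not called either way, at -0.37 ± 0.21 and -0.23 ± 0.13.

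Among the 9 genes of strand exchange factors, *XRCC2* and *RAD54L* fell. *XRCC2*, a paralog of the recombinase, read 17.3, 13.6, 19.7 and 17.4 CPM in SCR (-dox) and 9.47, 7.33, 7.19 and 2.95 CPM in NAA40-KD (-dox), with a log2 fold change of -1.31 ± 0.29 and of -1.08 ± 0.15 without replicate 4. *RAD54L*, a motor protein of strand exchange, read 9.24, 12.7, 11.3 and 12.7 CPM against 5.4, 4.83, 5.36 and 4.94 CPM. It is the called gene in which replicate 4 was not the lowest of its group, and its log2 fold change was -1.13 with that library (SE 0.17) and without it (SE 0.16). Its longest annotated transcript has 53.1% GC, the highest of the 10 genes that fell. *RAD51AP1*, *RAD51B* and *RAD51D* fell without replicate 4, at -0.76, -0.80 and -0.38. *RAD52*, which anneals single strands, was higher then (0.42 ± 0.12, edgeR adjusted p = 0.0108), with 27.8, 25.9, 23.6 and 24.8 CPM in all 4 libraries against 19.5, 19.2, 21.9 and 17.2 CPM in the control. *RAD51C*, *RAD54B* and *XRCC3* were not called in either fit.

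Of the 9 helicase and junction genes, *BLM* and *GEN1* fell. *BLM*, the helicase that dissolves joined molecules together with TOP3A, RMI1 and RMI2, read 40.6, 33.4, 39.5 and 39.5 CPM in SCR (-dox) and 19.8, 17.8, 18.8 and 8.04 CPM in NAA40-KD (-dox). Its log2 fold change was -1.22 ± 0.25, and -1.02 ± 0.11 without replicate 4. *GEN1*, a nuclease that cuts joined molecules, read 37.6, 30.9, 39.4 and 28.6 CPM against 18.3, 15.3, 12.5 and 8.04 CPM, a log2 fold change of -1.31 ± 0.24, and -1.14 ± 0.15 without replicate 4. The partner genes of *BLM*, namely *RMI1*, *RMI2* and *TOP3A*, had log2 fold changes of -0.57, -0.29 and -0.10, and none was called. *SLX4*, the scaffold that holds several nucleases, read 21.8, 23.1, 22.5 and 19.2 CPM against 33.4, 30.1, 25.1 and 48.0 CPM. Its groups did not overlap, and it was called higher without replicate 4 (0.46 ± 0.12) but not with it (0.70 ± 0.22, edgeR adjusted p = 0.092).

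Among the Fanconi genes, both genes of the ID2 complex fell. *FANCD2* read 68.5, 64.8, 77.1 and 69.2 CPM in SCR (-dox) and 44.4, 33.5, 37.9 and 27.1 CPM in NAA40-KD (-dox), a log2 fold change of -0.94 ± 0.17, and of -0.85 ± 0.11 without replicate 4. *FANCI* read 111, 123, 142 and 141 CPM against 78.1, 68.2, 68.9 and 44.4 CPM, a log2 fold change of -0.97 ± 0.18, and of -0.84 ± 0.10 without replicate 4. Of the 8 genes of the core complex none was called with all libraries, at log2 fold changes from -0.89 to 0.12, and 5 fell without replicate 4, namely *FANCA*, *FANCB*, *FANCE*, *FANCG* and the ubiquitin ligase gene *FANCL*. *FANCB* read 5.90, 4.72, 5.67 and 6.04 CPM against 3.99, 3.10, 3.01 and 1.67 CPM, from as few as 21 counts, so that counting error is large. *FANCA* read 93.5, 88.4, 94.2 and 80.7 CPM against 55.5, 48.2, 42.7 and 72.1 CPM, and here replicate 4 was the highest of its group. Its log2 fold change was -0.67 ± 0.19 with that library and -0.86 ± 0.10 without it. *FANCC*, *FANCF* and *FANCM* were not called in either fit. The difference between the complexes was not tested.

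Of the 4 checkpoint kinases 0 were called with all libraries. The log2 fold change was below 0 for 3 of them and above 0 for *ATM*, both with replicate 4 and without it. *CHEK2* was called lower without replicate 4 (-0.29) but not with it (-0.43). *ATR* was not called in either fit (-0.29 with replicate 4 and -0.08 without it). *CHEK1*, the effector kinase of ATR, read 45.4, 33.5, 42.6 and 49.5 CPM in SCR (-dox) and 29.7, 26.7, 32.5 and 13.5 CPM in NAA40-KD (-dox), and it was called lower without replicate 4 (-0.52 ± 0.12) but not with it (-0.72 ± 0.25). *ATM* read 58.4, 48.8, 63.0 and 42.6 CPM against 106, 105, 75.2 and 36.5 CPM. Replicates 1 to 3 were above every control library and replicate 4 below them, and *ATM* was called higher without replicate 4 (0.85 ± 0.15, edgeR adjusted p = 0.000709) but not with it (0.62 ± 0.30). *POLQ*, the polymerase of theta-mediated end joining, which repairs breaks without a homologous template, read 46.7, 43.6, 54.3 and 46.9 CPM against 34.2, 26.7, 29.1 and 14.5 CPM. It missed the threshold with all libraries (-0.85 ± 0.23, edgeR adjusted p = 0.0586) and passed it without replicate 4 (-0.67 ± 0.11).

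**Figure D4:**
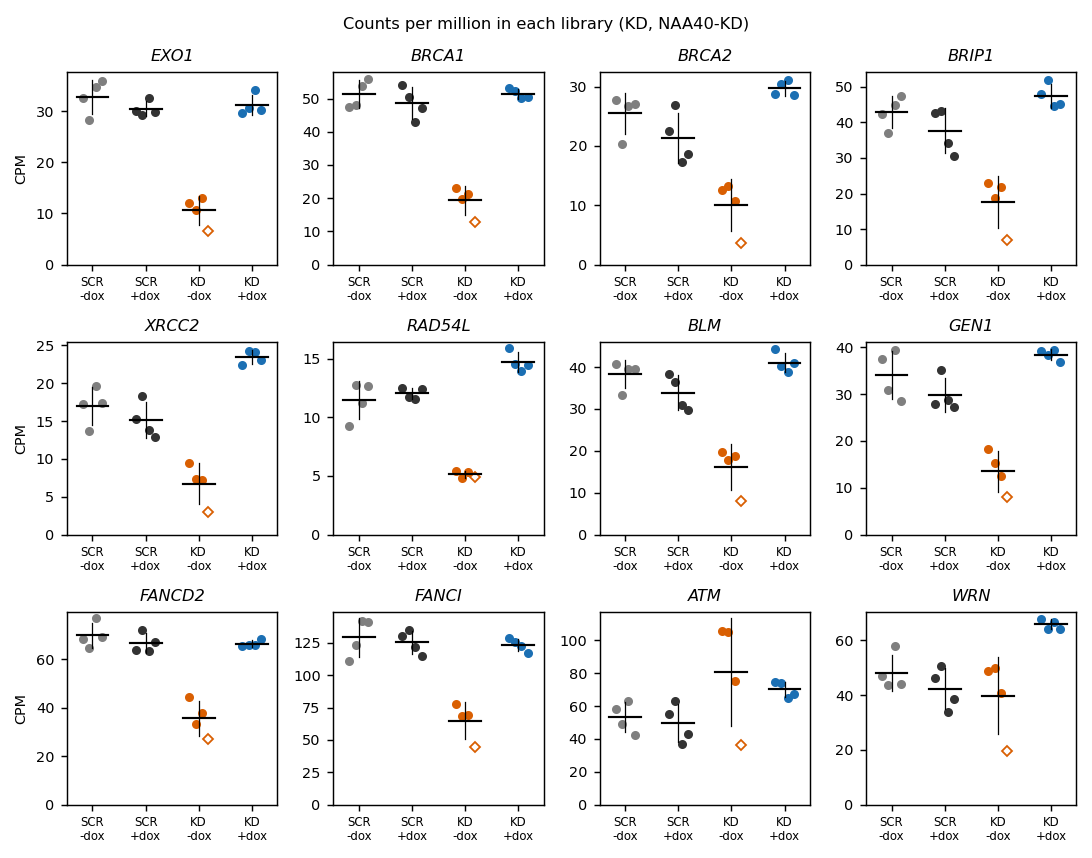
CPM of 12 repair genes in each of the 16 libraries, by group; bars are group means with 1 SD (n = 4), the vertical axes start at 0 and the open diamond is NAA40-KD (-dox) replicate 4. In the 10 genes from *EXO1* to *FANCI* all 4 NAA40-KD (-dox) points lie below the other 12 points, whereas in *ATM* replicates 1 to 3 lie above and replicate 4 below the SCR (-dox) points.

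The read counts of 22 of the 44 genes come from exons that overlap another annotated gene of the count table. Annotated genes outside the count table were not searched. How strand was treated in counting is not given in the sources used here, so the counts of these 22 genes are uncertain. Among the 10 genes that fell, *EXO1*, *BRCA2*, *BRIP1*, *XRCC2* and *BLM* have no overlap with a gene of the count table in GENCODE release 29 on GRCh38. *BRCA1* overlaps *RPL21P4*, *RAD54L* overlaps *LRRC41*, *GEN1* overlaps *SMC6*, *FANCI* overlaps *POLG* and *FANCD2* overlaps *FANCD2OS*, each on the opposite strand. *BRCA1* also overlaps *AC060780.1* on its own strand. *ATM* overlaps *NPAT* and *C11orf65*, and *MUS81* overlaps *CFL1* and *EFEMP2*. Levels per kilobase of exon, which allow genes to be ordered, ran in SCR (-dox) from 16.9 CPM per kb for *RBBP8* and 16.6 for *FANCI* down to 0.643 for *RAD51B*. *EXO1*, *BRCA1* and *BRCA2* stood at 7.93, 5.58 and 2.08 CPM per kb in SCR (-dox), and at 2.56, 2.10 and 0.818 CPM per kb in NAA40-KD (-dox), or 2.88, 2.33 and 0.992 CPM per kb over its replicates 1 to 3.

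Promoter sequences were read for 38 of the 44 genes (RefSeq, GRCh38.p14, from 250 bases before the start to 50 after it). They were searched on both strands for the letters TTTCCCGC, TTTGGCGC, TTTCGCGC and TTTGCCGC, which resemble the binding motif of E2F, a family of factors known for driving S phase genes. These letters stood in the windows of 7 genes, *EXO1*, *XRCC2*, *RMI1*, *GEN1*, *FANCA*, *FANCC* and *FANCD2*, or in 7 of the 52 windows of repair genes (13.5%), against 3.31% of all 35116 windows. Of the 9 genes with a window that fell in NAA40-KD (-dox), 4 held them, as did 3 of the other 29. CCAAT stood in 40.4% of the repair windows and in 34.6% of all windows, TTTGAA in 7.69% and 15.2%, and TTTAAA, which reads the same on both strands, in 9.62% and 12.2%. A match of letters is a description and shows no binding. The windows of the 4 genes that fell are printed because they hold the E2F-type letters, in capitals, close to the start.
EXO1, chr1:241847954-241848253 (+ strand): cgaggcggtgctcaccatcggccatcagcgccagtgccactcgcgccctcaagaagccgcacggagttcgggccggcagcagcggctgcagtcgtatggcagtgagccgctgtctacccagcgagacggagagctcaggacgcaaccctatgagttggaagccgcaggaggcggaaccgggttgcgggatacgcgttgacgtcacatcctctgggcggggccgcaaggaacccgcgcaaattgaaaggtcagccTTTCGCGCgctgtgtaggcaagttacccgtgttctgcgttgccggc
GEN1, chr2:17753619-17753918 (+ strand): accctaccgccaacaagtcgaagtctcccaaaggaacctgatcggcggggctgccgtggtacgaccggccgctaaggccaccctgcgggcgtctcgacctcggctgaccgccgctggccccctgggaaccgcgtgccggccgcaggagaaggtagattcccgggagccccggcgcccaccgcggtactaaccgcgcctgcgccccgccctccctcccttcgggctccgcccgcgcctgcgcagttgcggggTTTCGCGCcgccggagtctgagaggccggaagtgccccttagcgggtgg
XRCC2, chr7:152676092-152676391 (- strand): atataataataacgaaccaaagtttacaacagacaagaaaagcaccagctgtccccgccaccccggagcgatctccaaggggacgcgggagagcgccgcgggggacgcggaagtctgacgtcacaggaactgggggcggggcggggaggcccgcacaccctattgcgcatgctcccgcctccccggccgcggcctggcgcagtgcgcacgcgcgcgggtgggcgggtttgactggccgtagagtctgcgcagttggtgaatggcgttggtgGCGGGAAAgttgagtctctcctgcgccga
FANCD2, chr3:10026187-10026486 (+ strand): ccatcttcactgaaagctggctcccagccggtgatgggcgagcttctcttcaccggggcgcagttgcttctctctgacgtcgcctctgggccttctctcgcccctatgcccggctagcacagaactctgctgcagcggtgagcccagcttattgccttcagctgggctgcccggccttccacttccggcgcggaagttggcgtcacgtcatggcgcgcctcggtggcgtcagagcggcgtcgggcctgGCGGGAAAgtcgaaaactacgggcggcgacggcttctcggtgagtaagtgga
In *EXO1*, *GEN1* and *XRCC2* the capitals begin at base 5, 2 and 22 of the transcript, and in *FANCD2* they begin 2 bases before its start.

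Under the +dox labels most of the called repair genes were higher in the NAA40-KD line, by small amounts. In NAA40-KD (+dox) against SCR (+dox), 14 of the 44 genes rose and 1 fell, where 24.5% of all 13869 genes tested were called, 10.9% higher and 13.7% lower. None of the 15 changed by more than 1 on the log2 scale, as 2.15% of all genes did, and the median of the 44 genes was 0.21, against -0.004 over all genes tested. In 17 of the 44 genes every NAA40-KD (+dox) library was above every SCR (+dox) library, as in 13.5% of all genes. *WRN*, a helicase and exonuclease of broken forks, read 46.2, 50.6, 33.8 and 38.8 CPM in SCR (+dox) and 68.0, 64.3, 66.9 and 64.4 CPM in NAA40-KD (+dox), a log2 fold change of 0.63 ± 0.11 (SE) with an edgeR adjusted p of 0.000494. *XRCC2* read 15.3, 18.4, 13.8 and 12.9 CPM against 22.4, 24.3, 24.2 and 23.1 CPM, also 0.63 ± 0.12. Neither gene overlapped between the groups, and the spread of *WRN* among the SCR (+dox) libraries (SD 7.5 CPM) was larger than among the NAA40-KD (+dox) libraries (SD 1.86 CPM).

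*ATM* rose by 0.49 ± 0.13 on the log2 scale, from 54.9, 63.2, 37.2 and 43.0 CPM to 74.6, 73.8, 65.2 and 67.1 CPM. *RMI2*, a small subunit of the BLM complex, rose by 0.48 ± 0.13, from 8.54, 8.64, 10.1 and 10.2 CPM to 15.0, 12.4, 14.3 and 11.3 CPM. *BRCA2* rose by 0.47 ± 0.12, from 22.5, 26.9, 17.3 and 18.7 CPM to 28.8, 30.4, 31.1 and 28.6 CPM. The groups did not overlap in any of these 3 genes. The other genes that rose were *MRE11* (0.45), *ATR* (0.42), *BARD1* (0.39), *DNA2* (0.37), *GEN1* (0.36), *FANCA* (0.35), *EME1* (0.34), *BRIP1* (0.33) and *FANCC* (0.28). *MUS81*, a nuclease of joined molecules, fell by 0.41 ± 0.13 and read 22.7, 32.5, 35.4 and 33.1 CPM in SCR (+dox) against 24.8, 21.7, 24.1 and 23.5 CPM, so that its groups overlapped through SCR (+dox) replicate 1. *EXO1*, *BRCA1*, *FANCD2* and *FANCI* were not called, at log2 fold changes of 0.03, 0.07, -0.01 and -0.03. Leaving out NAA40-KD (+dox) replicate 4 gave 9 called genes, all higher, where 17.3% of all genes were called, and an edgeR fit over all 16 libraries, whose common spread includes NAA40-KD (-dox) replicate 4, called 0 of the 44 and 6.71% of all genes.

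The difference between the lines was then tested for a difference between the labels, as the interaction of line and dox label over all 16 libraries. For 16 of the 44 genes the log2 fold change of NAA40-KD over SCR was higher under +dox than under -dox, and for 0 it was lower, where 9.22% of all 14392 genes tested were called, 4.31% higher and 4.91% lower. The largest differences were 1.94 ± 0.32 (SE) for *XRCC2*, 1.79 ± 0.36 for *BRCA2*, 1.67 ± 0.26 for *GEN1*, 1.64 ± 0.22 for *EXO1* and 1.59 ± 0.34 for *BRIP1*. Of the 5 genes of the BRCA complex 4 were called, *PALB2* being the exception, and both genes of the ID2 complex were called, as was *POLQ* (1.00 ± 0.27). *BARD1* and *POLQ* were each called in 8 of the 16 fits with a library left out. Of the checkpoint kinases 0 of 4 were called, and *ATM* had a difference of -0.13 ± 0.35. Without NAA40-KD (-dox) replicate 4, 29 of the 44 were called, all higher, where 24.2% of all genes were called, 11.9% higher, and the differences for *XRCC2*, *BRCA2*, *GEN1*, *EXO1* and *BRIP1* were 1.70, 1.52, 1.49, 1.47 and 1.33. Side by side, 30 of the 44 genes had a log2 fold change below 0 under -dox and above 0 under +dox. Of these, 4, namely *BRCA2*, *BRIP1*, *XRCC2* and *GEN1*, were called in both, in opposite directions. The share of all genes with either pattern was not counted. With a library left out, *BRIP1* was called in 1 of 8 fits under -dox and in 2 of 8 under +dox. *BRCA2*, *XRCC2* and *GEN1* were called in 1, 2 and 6 of 8 under -dox and in all 8 under +dox. The comparisons under the 2 labels share no library.

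**Figure D5:**
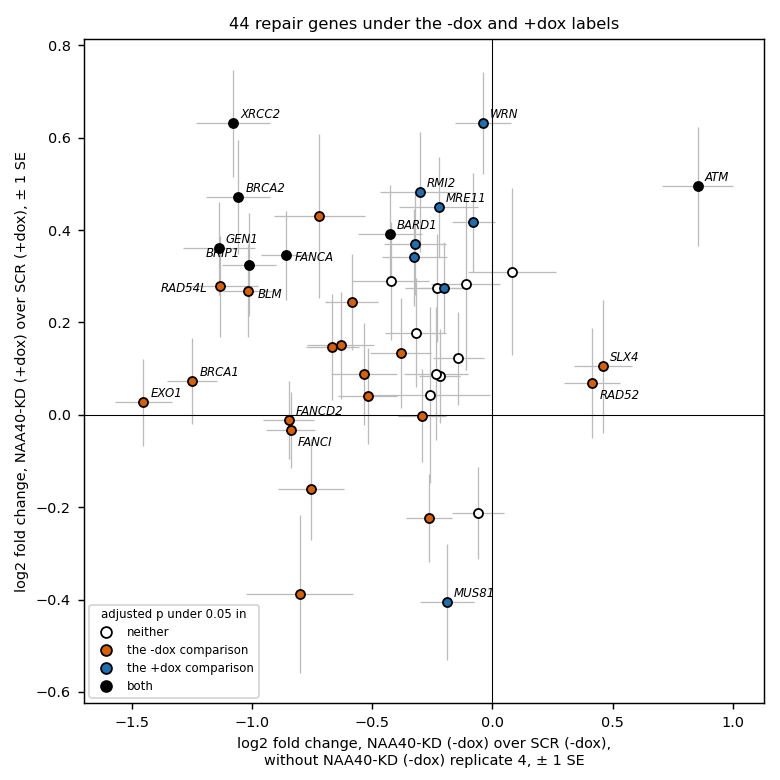
Each point is 1 of the 44 repair genes, by its log2 fold change of NAA40-KD over SCR under the -dox label without NAA40-KD (-dox) replicate 4 (horizontal axis) and under the +dox label (vertical axis), with 1 SE to each side and a fill that shows where it was called. The upper left field, lower under -dox and higher under +dox, holds 32 of the 44 genes. The share of all genes in this field was not counted.

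Dox alone gave no call in the control line. In SCR (+dox) against SCR (-dox), edgeR called 0 of the 44 genes and 0% of all 13882 genes tested, DESeq2 and limma-voom called 0 of the 44 as well, and at an unadjusted p under 0.05 edgeR had 0 of the 44 and 1.95% of all genes. The median log2 fold change of the 44 was -0.07, and 33 lay below 0, against 50.4% of all genes. Within the NAA40-KD line, 17 of the 44 genes were higher in NAA40-KD (+dox) than in NAA40-KD (-dox) and 0 lower, where 10.2% of all 13844 genes were called, 4.71% higher and 5.5% lower. This comparison takes its libraries from those above and is no separate evidence. *XRCC2* (1.79 ± 0.28), *BRCA2* (1.55 ± 0.32), *EXO1* (1.54 ± 0.20), *RAD54L* (1.5 ± 0.13) and *GEN1* (1.49 ± 0.22) had the largest log2 fold changes. Without NAA40-KD (-dox) replicate 4, 33 genes were higher and 3 lower (*ATM*, *RAD52* and *SLX4*), where 52.4% of all genes were called, 25.8% higher and 26.6% lower. Leaving out NAA40-KD (+dox) replicate 1, 2, 3 or 4 gave 10, 10, 8 and 8 called genes, where 3.65%, 3.53%, 2.77% and 2.79% of all genes were called, and leaving out NAA40-KD (-dox) replicate 2 gave 11, where 5.87% were.

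Other genes of DNA repair were counted in the -dox comparison as well. Here 6.42% of all genes were called with all libraries and 36.5% without replicate 4. Of 40 tested among 43 other recombination and crosslink repair genes, 1 fell, *MMS22L*, a factor of replication-coupled recombination (-1.36 ± 0.32), and without replicate 4 the count was 18 lower and 2 higher, led by *RECQL4* (-1.38), *MMS22L* (-1.09) and *TONSL* (-0.95). Of 21 tested checkpoint and break signalling genes 3 fell, *CLSPN* (-1.38 ± 0.20), *CDC25A* (-0.68 ± 0.16) and *MDC1* (-0.64 ± 0.16), and without replicate 4 the count was 8 lower and 3 higher. Of 12 tested genes of non-homologous end joining, which rejoins ends without a template, 1 fell, *PRKDC*, the catalytic kinase subunit (-0.64 ± 0.15), and the count was 3 lower and 2 higher without replicate 4. The medians of these lists were -0.20, -0.18 and -0.11, against -0.47 for the 44 genes. Differences between lists were not tested. Under +dox, 6 of 42 other recombination genes rose and 3 fell, 7 of 21 signalling genes rose and 1 fell, and 1 of 12 end joining genes rose and 1 fell, where 10.9% of all genes rose and 13.7% fell.

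Genes of cell cycle phases fell too. In the -dox comparison 18 of 31 S phase genes fell, among them *GINS3* (-1.69) and *CCNE2* (-1.59), with a median of -1.0 over the list. Without replicate 4 all 31 fell, with a median of -1.11. Of 28 G2/M genes 8 fell, among them *BIRC5* (-1.17), *MKI67* (-1.04) and *AURKA* (-0.93), and 26 fell without replicate 4. Of all genes tested, 3.54% fell with all libraries and 19.4% without replicate 4. The summed level of the 31 S phase genes ran from 1391 to 1847 CPM in NAA40-KD (-dox) and from 2683 to 3614 CPM in SCR (-dox), and that of the 28 G2/M genes from 1793 to 2390 and from 3452 to 3650 CPM. Under +dox 7 S phase genes rose and 3 fell, and of the G2/M genes 0 rose and 6 fell. Of all genes tested there, 10.9% rose and 13.7% fell. The part of cell cycle phase in the levels of the repair genes was not tested.

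The cell type labelled was checked against its markers. All 8 colorectal epithelial markers (*EPCAM*, *CDH1*, *KRT8*, *KRT18*, *KRT19*, *CDX2*, *VIL1* and *LGALS4*) had counts, but only 6 passed the filter on low counts in each comparison. Their summed level ran from 3818 to 4877 CPM in SCR (-dox), from 4323 to 5525 in SCR (+dox), from 5099 to 6079 in replicates 1 to 3 of NAA40-KD (-dox), 10730 in its replicate 4 and from 4091 to 4397 in NAA40-KD (+dox). A single marker reached 2021 CPM in SCR (-dox), so the sum does not speak for all 8. Of the blood cell markers, *PTPRC* was at most 0.257 CPM, *CD3E* at most 0.237 CPM, *HBB* at most 0.153 CPM and *CD14* at most 0.447 CPM in any library. The 6 markers of fibroblasts and endothelium summed to 59.4 to 95.2 CPM in the SCR groups, to 69.5 to 82.8 CPM in replicates 1 to 3 of NAA40-KD (-dox), to 192 CPM in its replicate 4 and to 68.5 to 78.6 CPM in NAA40-KD (+dox), most of it *COL1A1*. The part of these differences in the repair genes was not tested.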

How the data were processed

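Total RNA of HCT116 cells was sequenced in 16 libraries, 4 in each of 4 groups taken from the labels. The authors used STAR for alignment and featureCounts for counting, and deposited the raw counts of 33937 genes, which had not been normalized. The methods name the mouse build mm10 and the labels name hg38 and GRCm38, while the identifiers are human Ensembl identifiers. A symbol was found for 33590 of them. The strand setting and the version of featureCounts are not given in the sources used here. By the column names, 0 count columns were left unmatched. The methods describe independent RNA samples. The ratio of chi-square to degrees of freedom between libraries of a group, 1.74 to 140, was above counting noise for all 24 pairs.

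From the deposited counts, genes with CPM above 1 in at least 4 libraries of the fit were tested with edgeR 4.0.16 in R 4.3.3 (TMM, robust quasi-likelihood F test, two-sided, Benjamini-Hochberg over all genes tested). Called means an adjusted p under 0.05. Each comparison was fitted on its own 8 libraries and the interaction on all 16. SE is |log2 fold change| over the square root of F. For *NAA40*, an exact permutation test (two-sided, 70 arrangements) was added. In simulated counts for the -dox comparison, 51% of genes changed by a log2 fold change of 1 and 96.9% of those changed by 2 were called. With 11065606 to 13855486 counts per library, counting error is largest for weakly expressed genes.

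Values per library are given for *NAA40*, for repair genes called in a comparison with more than 1 of absolute log2 fold change, for up to 5 called genes per direction with the largest changes in each comparison, and for the gene of each role with the lowest adjusted p in the -dox comparison. *FANCI*, *RAD52* and *SLX4* were added after their values were seen. Of related lists, at most 3 called genes with the largest changes were named per comparison, and some genes of those lists are not reported here. The members, lists and tests were chosen with earlier results of these data known. Alternatives were DESeq2 1.42.0, limma-voom (limma 3.58.1), library-size and upper-quartile scaling, no filter on low counts, CPM above 1 in every library, 1 fit of all 16 libraries, a replicate block, other thresholds and each library left out. Chosen after seeing the data were a GC content offset (lowess, span 0.3), alone and without NAA40-KD (-dox) replicate 4, and the fit without both -dox replicates 4.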

Additional observations from a re-analysis of the deposited data

Results flagged for a closer look

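In groups of 4 libraries, Dixon's gap test set a single library apart in 5 of the 76 groups of values tested, where chance alone gives about 1 in 20. These were *BRCA2* in SCR (-dox) replicate 2 at 20.4 CPM (the others 26.7 to 27.8), *BLM* in the same library at 33.4 CPM (the others 39.5 to 40.6), *BLM* in NAA40-KD (-dox) replicate 4 at 8.04 CPM (the others 17.8 to 19.8), *FANCD2* in NAA40-KD (+dox) replicate 4 at 68.6 CPM (the others 65.7 to 66.0) and *RMI2* in SCR (-dox) replicate 4 at 11.1 CPM (the others 7.39 to 7.87).

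For 16 of the 44 repair genes the log2 fold change of NAA40-KD over SCR differed between the dox labels, and was higher under +dox in each. It was tested as the interaction in edgeR with Benjamini-Hochberg adjustment over all genes, of which 9.22% were called, 4.31% higher. The differences on the log2 scale were 1.94 for *XRCC2*, 1.79 for *BRCA2*, 1.67 for *GEN1*, 1.64 for *EXO1*, 1.59 for *BRIP1*, 1.5 for *BLM*, 1.46 for *BRCA1*, 1.42 for *RAD54L* and 1.32 for *FANCB*. Further down they were 1.03 for *FANCA*, 1.02 for *BARD1*, 1.00 for *POLQ*, 0.94 for *FANCI*, 0.937 for *FANCD2*, 0.78 for *RMI2* and 0.507 for *FANCC*. The same 16 genes were among the 29 called without NAA40-KD (-dox) replicate 4, where 24.2% of all genes were called, 11.9% higher. Over the 16 fits with a library left out, *FANCC* was called in 4, *BARD1* and *POLQ* in 8 each and *RMI2* in 11. The others were called in all 16 fits.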

How the results depend on the processing

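No called repair gene changed sign in the alternatives run. Of the uncalled genes, *XRCC3*, *MUS81* and *RAD50* went from 0.10, 0.19 and 0.06 to -0.42, -0.19 and -0.11 in the -dox comparison without NAA40-KD (-dox) replicate 4. Of the values of single named genes over the alternatives, 183 kept their side of the threshold, 44 lost it and 20 gained it in NAA40-KD (-dox) against SCR (-dox), and 43, 53 and 36 lost it in the +dox comparison, within the NAA40-KD line and in the interaction, where 212, 236 and 348 kept it. In NAA40-KD (-dox) against SCR (-dox), where 10 genes were called, the count was 3 at an adjusted p under 0.01 (1.11% of all genes), 16 at 0.1 (12.2%), 17 with DESeq2 (13.8%), 22 in the fit over all 16 libraries (20.5%), 29 with the GC offset (36.1%), 29 with the GC offset and without NAA40-KD (-dox) replicate 4 (40.4%), and 25 without both -dox replicates 4 (36.8%), and it ran from 3 (without SCR (-dox) replicate 3) to 26 (without NAA40-KD (-dox) replicate 4) over the 8 fits with a library left out, where 1.64% to 36.5% of all genes were called. In NAA40-KD (+dox) against SCR (+dox), where 15 were called, it was 6 at 0.01 (12.7% of all genes), 0 past the fold threshold (2.15%) and 0 in the fit over all 16 libraries (6.71%), and 9 (without NAA40-KD (+dox) replicate 4) to 16 with a library left out. In NAA40-KD (+dox) against NAA40-KD (-dox), where 17 were called, it was 6 at 0.01 (2.39% of all genes) and 9 past the fold threshold (3.99%). It was 26 with DESeq2 (18.3%), 30 in the fit over all 16 libraries (22.3%) and 36 with the GC offset (44.2%). With a library left out it was 8 to 36, where 2.77% to 52.4% of all genes were called. For the interaction, where 16 were called, it was 31 with the GC offset (29.1% of all genes). With a library left out it was 12 to 29, where 5.71% to 24.2% of all genes were called. Both were highest without NAA40-KD (-dox) replicate 4. The cause of these differences was not tested. In SCR (+dox) against SCR (-dox) the count was 0 in every alternative run.

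Samples of the same replicate number deviated together in 6 of 16 pairs (r above 0.1, range -0.416 to 0.237), and 5 of 16 correlated best with their own number, so the numbers were not taken to pair the samples. A replicate block gave 1 called gene, *EXO1*, in place of 10 in the -dox comparison (0.59% of all genes in place of 6.42%). It gave 16 in place of 15 in the +dox comparison (29.3% of all genes in place of 24.5%). Within the NAA40-KD line it gave 13 in place of 17 (5.61% in place of 10.2%). For the interaction it gave 15 in place of 16 (8.46% in place of 9.22%), and in the SCR line 0 (0% of all genes). The *NAA40* level in NAA40-KD (+dox) was 111% of SCR (+dox), 112% without TMM and 112% with upper-quartile factors, where the exact permutation p was 0.0571, and 110% to 113% with a library left out. In SCR (+dox) it was 92.1% of SCR (-dox), and 88.4% to 97.6% with a library left out. The values for NAA40-KD (-dox) were 37.5% to 42.1%, and those of NAA40-KD (+dox) over NAA40-KD (-dox) 244% to 273%.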

Other observations

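Outside the 44 genes, the largest interaction of line and dox label in its list was that of *MMS22L*, which protects replication forks with TONSL (1.93 ± 0.34 on the log2 scale, SE, and 1.66 ± 0.15 without NAA40-KD (-dox) replicate 4), among the other recombination genes, of *GINS2*, a subunit of the replicative helicase (1.83 ± 0.27, and 1.84 ± 0.25 without it), among the S phase genes, and of *CLSPN*, the adaptor by which ATR activates CHEK1 (1.75 ± 0.21, and 1.63 ± 0.17 without it), among the checkpoint genes. *SWI5*, an accessory factor of strand exchange, went the other way (-1.23 ± 0.29, and -0.96 ± 0.20 without replicate 4). Of 31 S phase genes 20 were called in this test, all higher, and of 28 G2/M genes 6 were called, all higher, where 9.22% of all genes were called. Without NAA40-KD (-dox) replicate 4 these counts were 29 and 17, all higher, where 24.2% of all genes were called. *H2AX*, the histone variant that marks breaks, was not called in NAA40-KD (-dox) against SCR (-dox) with all libraries (-1.06 ± 0.38, edgeR adjusted p = 0.13), where its groups overlapped, and was called lower without NAA40-KD (-dox) replicate 4 (-1.65 ± 0.15). It was chosen after its values were seen.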
